A study of Mus musculus with 48 samples.

Results

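The genes described are the enzymes that carry a long-chain fatty acid into the mitochondrion and oxidise it there, taken as every probe annotated to CPT1A, CPT1B, CPT2, ACADM, ACADL, ACADVL, HADHA, HADHB, ACAA2 or ETFDH. Of these 10 genes, 9 had a probe, with 14 probes in all among the 24613 probes and 18991 gene symbols of the array. HADHA had none. Of the 14 probes, 12 (8 genes) had a detection p under 0.01 (above background) on at least 3 arrays and 10 (7 genes) on all 48 arrays.

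The samples were 3T3-L1 cells, a mouse fibroblast line that is differentiated into fat cells in culture, carrying 50 nM of either a non-targeting siRNA pool (control siRNA) or a pool of siRNAs against PPARγ (PPARγ siRNA), introduced before differentiation. All cells, those with control siRNA included, followed the same schedule. It gave 0.5 mM IBMX and 0.25 µM dexamethasone at confluence for 48 hours. Then came 5 µg/ml insulin and 1 µM rosiglitazone, a PPARγ agonist, for 48 hours. Days are counted from the rosiglitazone treatment, and RNA was taken on day −2 and on days 0 to 6 from 3 independent biological replicates of each siRNA, which gave 24 arrays for each siRNA. Cells of day −2 and day 0 were taken before insulin and rosiglitazone. No arm without rosiglitazone on the later days is among these samples, and both siRNAs were pools in 1 cell line.

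Fatty acids enter mitochondria as carnitine esters. CPT1 on the outer membrane makes the ester, CPT2 on the inner membrane turns it back into an acyl-CoA, and the acyl-CoA dehydrogenases, each for a range of chain lengths (ACADVL very long, ACADL long, ACADM medium), start every round of beta-oxidation. The trifunctional protein (HADHA and HADHB) and the thiolase ACAA2 finish the round, while ETFDH hands the electrons of the dehydrogenases to ubiquinone. PPARγ is the nuclear receptor that drives fat cell differentiation, and it binds DNA with RXR at repeats of the hexamer AGGTCA.

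Signals are given as log2 of the background-corrected and scaled bead intensity, and differences as PPARγ siRNA minus control siRNA on that scale. Adjusted p-values are from limma with Bonferroni correction over all 24613 probes, and a probe was called at an adjusted p of at most 0.05. The number of arrays limits the precision. Member probes were read on 12 to 61 beads per array. Array medians lay between 105.1 and 141.7 intensity units, and 36.8% to 40.4% of the probes were above background on the arrays of replicates 1 and 2 against 33.4% to 35.4% on those of replicate 3. PPARG itself, by its brightest probe 6130632, averaged 11.42 with control siRNA and 9.08 with PPARγ siRNA on the log2 scale, a difference of −2.34 (SE 0.04, limma adjusted p = 9.48e-34), and the difference was −2.41 already on day −2.

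Averaged over days −2 to 6, 7 of the 9 measured genes were called lower with PPARγ siRNA than with control siRNA, and none was called higher. In probes, 10 of 14 were called lower by limma, where 6.74% of all probes were, and the 14 had a median log2 difference of −0.50 beside −0.03 over all probes. The share over all probes includes many dim ones. When only the probes above background on at least 3 arrays were tested, 16.3% of them were called lower and 16.1% higher. The 7 genes were CPT2, ACADVL, ACADL, ACADM, HADHB, ACAA2 and ETFDH, so that a member of each step with a probe above background on all arrays was lower, from the inner membrane carnitine acyltransferase to the electron carrier. Averaged over these 7 genes by their brightest probes, the log2 difference was −0.78, −0.71 and −0.65 in replicates 1, 2 and 3 (mean −0.71, SD 0.07, n = 3). The arrays measured RNA of whole cultures, in which fewer cells of a type and less RNA per cell cannot be told apart.

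Promoters are printed here for the 5 genes that limma called higher from day −2 to day 6 under control siRNA. The windows run from 250 bases before to 50 after the start of the gene. They come from RefSeq on GRCm38.p6, 5′ to 3′ on the strand of the gene, with the hexamer AGGTCA on either strand in capitals: chr4:107923540-107923839 (minus) for CPT2, chr11:70015379-70015678 (minus) for ACADVL, chr3:153944594-153944893 (minus) for ACADM, chr5:30155003-30155302 (plus) for HADHB and chr3:79628718-79629017 (minus) for ETFDH.
CPT2: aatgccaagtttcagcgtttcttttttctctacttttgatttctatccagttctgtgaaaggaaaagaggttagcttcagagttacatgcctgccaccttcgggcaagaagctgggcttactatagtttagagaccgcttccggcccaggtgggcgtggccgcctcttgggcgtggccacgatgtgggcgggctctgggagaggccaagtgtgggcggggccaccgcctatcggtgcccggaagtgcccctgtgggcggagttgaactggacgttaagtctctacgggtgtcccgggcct
ACADVL: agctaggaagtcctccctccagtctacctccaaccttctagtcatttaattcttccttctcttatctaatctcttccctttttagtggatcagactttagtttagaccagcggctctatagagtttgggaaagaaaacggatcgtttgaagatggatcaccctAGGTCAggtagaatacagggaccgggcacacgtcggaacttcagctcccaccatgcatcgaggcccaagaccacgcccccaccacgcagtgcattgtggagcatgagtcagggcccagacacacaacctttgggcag
ACADM: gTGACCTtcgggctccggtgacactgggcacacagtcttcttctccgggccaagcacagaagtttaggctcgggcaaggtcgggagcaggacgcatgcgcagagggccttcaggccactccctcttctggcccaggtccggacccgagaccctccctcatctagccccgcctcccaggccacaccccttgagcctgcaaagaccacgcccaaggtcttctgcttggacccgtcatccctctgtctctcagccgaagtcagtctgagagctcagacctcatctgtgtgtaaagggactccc
HADHB: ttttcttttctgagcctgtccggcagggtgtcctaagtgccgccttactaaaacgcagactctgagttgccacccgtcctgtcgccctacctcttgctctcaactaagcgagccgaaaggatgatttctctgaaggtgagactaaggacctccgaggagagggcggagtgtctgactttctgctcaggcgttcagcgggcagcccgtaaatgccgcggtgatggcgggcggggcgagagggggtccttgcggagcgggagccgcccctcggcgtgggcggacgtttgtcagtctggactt
ETFDH: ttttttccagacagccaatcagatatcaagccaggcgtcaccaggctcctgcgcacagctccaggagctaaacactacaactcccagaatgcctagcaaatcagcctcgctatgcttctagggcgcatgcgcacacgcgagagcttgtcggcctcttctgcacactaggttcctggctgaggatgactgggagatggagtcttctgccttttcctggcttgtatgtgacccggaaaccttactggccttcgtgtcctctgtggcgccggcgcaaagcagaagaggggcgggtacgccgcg

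A promoter was at hand for 8 of the 10 genes. The hexamer was in the window of 3, ACADM, ACADVL and CPT1A, and in 16.3% of all 32817 promoter windows of the same length. Counted from the start of the gene, it begins at position −87 in ACADVL on the gene's strand and at position −249 in ACADM on the other strand. A full direct repeat with 1 base between, AGGTCANAGGTCA, was in none of the 8 windows and in 0.0396% of all windows. With up to 3 mismatches allowed it was in the ACADM window alone, against 24.6% of all windows, in places that overlap the hexamer or each other. The extended form TNAAGGTCA was in none of the 8 and in 1.28% of all. The HADHB window overlaps that of HADHA by 228 bases, since these genes run in opposite directions from start sites 273 bases apart, and HADHA was not read by the array.

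The entry step was read poorly. CPT1A, which makes the acylcarnitine in most tissues, has 1 probe (6350093), and it was above background on none of the 48 arrays, so no change of CPT1A is given. CPT1B, the form of muscle and brown fat, has probe 2690433, above background on no array, and probe 940086, above background on 19 of 24 arrays with control siRNA and 15 of 24 with PPARγ siRNA. By the latter probe the log2 signal of CPT1B ran from 6.56 through a median of 6.94 to 7.27 under control siRNA and from 6.27 through 6.71 to 7.25 under PPARγ siRNA, so the ranges over all days overlapped. By day its groups did not overlap on day −2 (6.73 to 6.89 under control siRNA against 6.27 to 6.55) or on day 1 (6.78 to 6.92 against 6.32 to 6.73). Its log2 difference of −0.23 (SE 0.04) was negative in 20 of 24 pairs matched by day and replicate number and had a limma adjusted p = 0.101, which is not a call. It became one (adjusted p = 0.0405) when only the probes above background on at least 3 arrays were tested.

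CPT2, which releases the acyl-CoA inside the mitochondrion, was lower by both of its probes. Under control siRNA the log2 signal of probe 3940504 was 11.71, 11.63 and 11.06 in replicates 1 to 3 on day −2 and 12.54, 12.64 and 12.17 on day 6. Under PPARγ siRNA it was 11.58, 11.53 and 11.07 on day −2 and 11.58, 11.63 and 11.17 on day 6. The siRNAs overlapped on day −2, and on day 6 the highest array with PPARγ siRNA lay below the lowest with control siRNA. The difference over all days was −0.81 (log2, SE 0.04, limma adjusted p = 3.31e-19), a 1.76-fold lower level, and the second probe (6180075) gave −0.82. The course of both probes over the 16 means of siRNA and day was nearly the same (Pearson r = 0.994, a description).

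ACADVL, the dehydrogenase that takes the longest chains, had on day 6 a log2 signal of 12.71, 12.76 and 12.97 under control siRNA and of 11.73, 11.74 and 11.84 under PPARγ siRNA. On day −2 the arrays had read 11.39, 11.46 and 11.73 under control siRNA and 11.53, 11.46 and 11.54 under PPARγ siRNA, so the groups overlapped on day −2 and not on day 6. The log2 difference over all days was −0.81 (SE 0.03, limma adjusted p = 9.11e-20), and it was largest on day 4 at −1.26.

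ACADM, the medium-chain dehydrogenase, gave the largest difference of the set over all days at −0.96 (SE 0.04, limma adjusted p = 3.39e-18), or 1.95-fold lower. Its log2 signal on day 2 was 13.19, 13.11 and 13.03 under control siRNA and 11.47, 11.50 and 11.96 under PPARγ siRNA. On day 6 it was 11.91, 12.06 and 11.94 against 11.20, 11.13 and 11.22. The groups did not overlap on either day, and the gap was 2.76-fold on day 2 and 1.73-fold on day 6.

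ACADL, the long-chain dehydrogenase, has a dim probe (6420044), above background on 13 of 48 arrays, and a brighter one (6860025), above background on all 48. By the brighter probe its log2 signal on day 0 was 7.41, 7.23 and 7.09 under control siRNA and 7.32, 7.38 and 7.33 under PPARγ siRNA, which overlap. On day 6 it was 8.34, 8.33 and 8.38 against 7.30, 7.09 and 7.78, which do not. The log2 difference over all days was −0.50 (SE 0.04, limma adjusted p = 1.27e-09), and the dim probe gave −0.21 without a call.

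HADHB, the thiolase subunit of the trifunctional protein, read 13.23, 12.97 and 12.20 on day 6 under control siRNA and 11.99, 12.17 and 10.96 under PPARγ siRNA. The lowest control array, replicate 3, lay just above the highest array with PPARγ siRNA. The HADHB probe was lowest in replicate 3 in 16 of 16 conditions, by 0.96 on average against the other replicates. Within such matched pairs the signal was lower with PPARγ siRNA in 24 of 24 pairs, and the log2 difference was −0.76 (SE 0.03, limma adjusted p = 1.45e-18). Without the replicate block the difference was as large and had a limma adjusted p = 0.648.

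ACAA2, the mitochondrial thiolase of medium and long chains, is read by 3 probes, each above background on all 48 arrays, and had the smallest difference of the 7 genes. By the brightest probe (6130139) the log2 signal ran from 12.19 through a median of 12.78 to 13.27 under control siRNA and from 11.88 through 12.36 to 12.95 under PPARγ siRNA. The log2 difference over all days was −0.37 (SE 0.03, limma adjusted p = 2.19e-10), with −0.50 and −0.51 by probes 1570347 and 2360324. The probes parted in replicate 3, where the brightest one lay 0.37 below the mean of the other replicates and the other two lay 0.38 and 0.43 above it. The cause of this was not tested.

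ETFDH, the ubiquinone reductase that takes up the electrons of all these dehydrogenases, showed the smallest p of the set. Its log2 signal on day 6 was 11.26, 11.19 and 10.69 under control siRNA and 10.15, 10.31 and 9.66 under PPARγ siRNA, with every control array above every array with PPARγ siRNA. The log2 difference over all days was −0.76 (SE 0.03, limma adjusted p = 1.27e-22), and it was negative in 24 of 24 pairs.

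**Figure D1:**
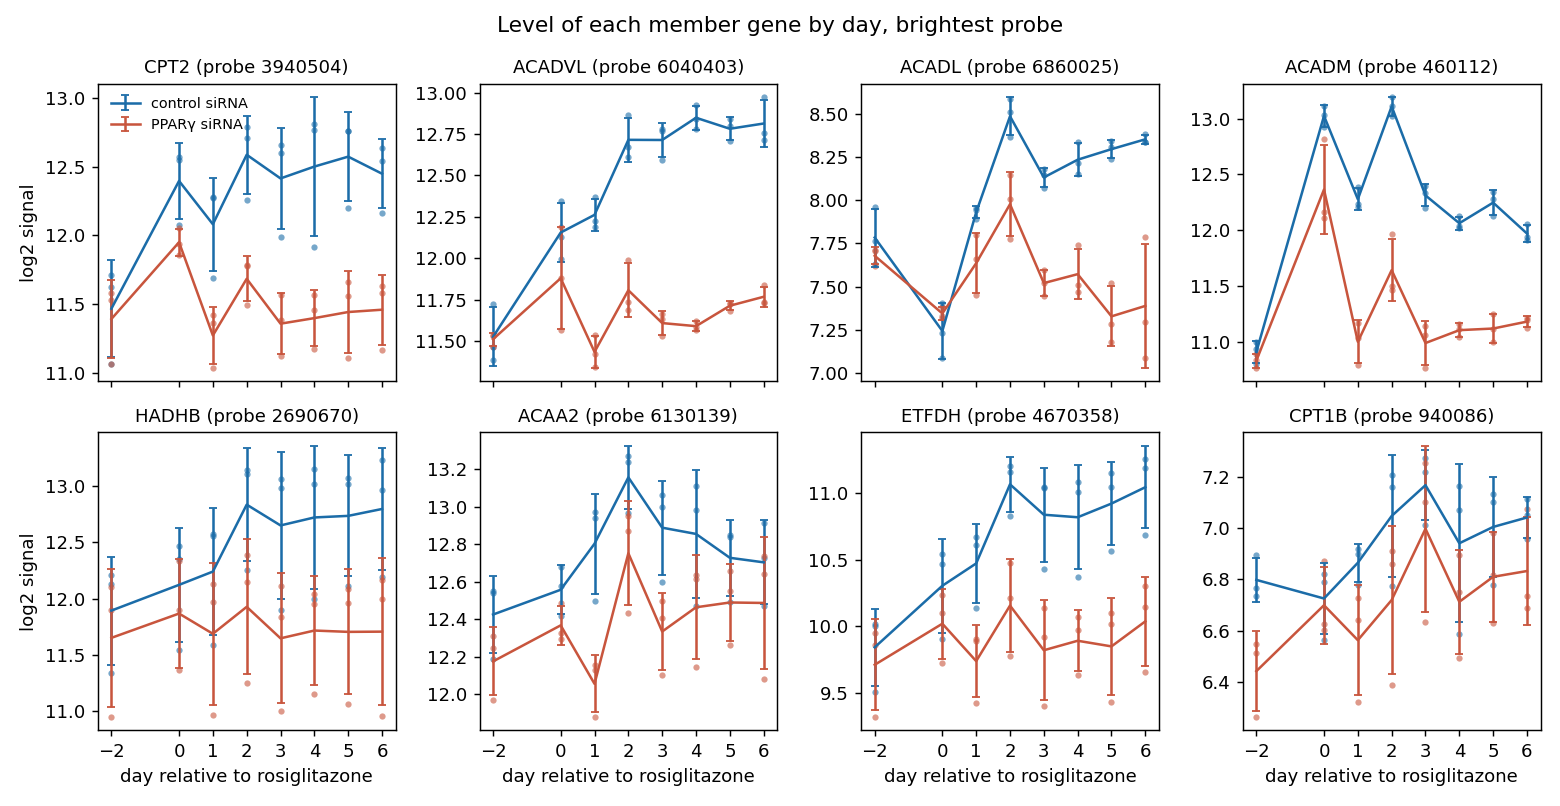
Log2 signal (y axis) of the brightest probe of 8 genes against the day relative to rosiglitazone (x axis), with 1 point per array, lines through the means of 3 replicates and bars of 1 SD, blue for control siRNA and red for PPARγ siRNA. The courses lie together on day −2 and part by day 1 for CPT2, ACADVL, ACADM and ETFDH. ACADL parts by day 1 as well, with a gap that widens up to day 5. The CPT1B points of the siRNAs lie close together, without overlap on day −2 and day 1.

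The question of when the enzymes part was read from the difference on each day, all days sharing 1 estimate of the spread and the comparisons sharing no arrays. On day −2 limma called 0 of the 14 probes lower (0.674% of all probes), with 5 lower at an unadjusted p under 0.05 (6.75% of all probes), although PPARG was already down. On day 0, after IBMX and dexamethasone, it again called 0 (1.37% of all probes), with 9 at an unadjusted p under 0.05 (8.87% of all probes) and ACADM largest at −0.66 (limma adjusted p = 0.167). On day 1, the first day of rosiglitazone and insulin, 9 probes of 6 genes were called (1.49% of all probes). The count was 8 on day 2 (4.18% of all probes), 7 on day 3 (2.29%), 6 on day 4 (2.13%), 7 on day 5 (2.68%) and 7 on day 6 (3.09%), and no member probe was called higher on any day, at either level of p. Without replicate 2 the count was 3 on day 1 and 4 on day 2, and without replicate 3 it was 1 on day 0. Without the replicate block it was 2 on each of days 1 to 4 and 3 on days 5 and 6.

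The mean log2 difference of the 7 genes above background on all arrays started at −0.13 on day −2 (replicate SD 0.05), and reached −0.29 on day 0, where the replicates spread more widely (SD 0.21). It was −0.75 on day 1, −0.86 on day 2, −0.95 on day 3, −0.90 on day 4, −0.95 on day 5 and −0.87 on day 6. The mean step from day 0 to day 1 was −0.46, larger than that from day −2 to day 0 (−0.16) in replicates 2 and 3 and not in replicate 1 (−0.25 against −0.34), and from day 2 on the mean stayed between −0.86 and −0.95. The spread on day 0 came from replicate 1 at −0.52, against −0.23 and −0.11 in the others.

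**Figure D2:**
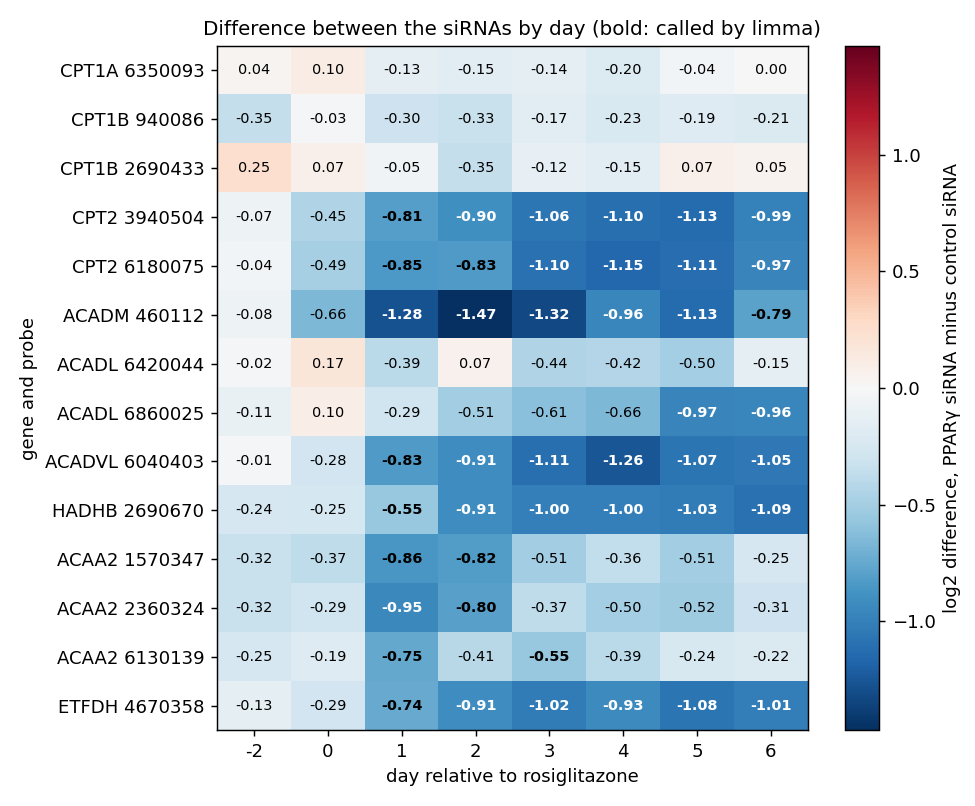
Log2 difference between PPARγ siRNA and control siRNA (colour and number) for each of the 14 probes (y axis) on each day (x axis), with blue for lower under PPARγ siRNA and bold for a limma call. No cell is bold on day −2 or day 0, CPT2, ACADVL, ACADM, HADHB and ETFDH are bold from day 1 to day 6, ACADL on days 5 and 6, and the ACAA2 probes between day 1 and day 3.

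The day of the widest gap was not the same for all genes, though no test compared the genes' courses with each other. The ACADM difference was −1.28 on day 1, −1.47 on day 2 and −1.32 on day 3 and had shrunk to −0.79 by day 6. That of ACAA2 was largest on day 1 (−0.75 by the brightest probe, −0.86 and −0.95 by probes 1570347 and 2360324) and was no longer called by any ACAA2 probe from day 4. ACADL went the other way, from 0.10 on day 0 and −0.29 on day 1 to −0.97 on day 5 and −0.96 on day 6. HADHB grew from −0.55 on day 1 to −1.09 on day 6. The tested difference between the effect on days 4 to 6 and that on days 0 to 2 was called lower by limma for 4 probes of 4 genes (2.82% of all probes). It was −0.63 for ACADL (SE 0.10, adjusted p = 0.00486), −0.47 for HADHB (SE 0.08, adjusted p = 0.0203), −0.45 for ACADVL (SE 0.08, adjusted p = 0.0302) and −0.36 for ETFDH (SE 0.06, adjusted p = 0.0209). For ACADM and ACAA2 it was 0.18 and 0.17 without a call. None of the 4 calls was kept when replicate 1 or replicate 2 was left out, and 1 was called without replicate 3.

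On the 18 arrays of days 4 to 6 alone, 8 probes of 7 genes were called lower by limma (3.77% of all probes). The log2 difference was −1.13 for ACADVL (SE 0.05, adjusted p = 1.00e-09), −1.07 for CPT2 (SE 0.06), −1.04 for HADHB (SE 0.06), −1.01 for ETFDH (SE 0.05), −0.96 for ACADM (SE 0.05) and −0.86 for ACADL (SE 0.08, adjusted p = 6.95e-05). ACAA2 was called by probe 2360324 (−0.44, adjusted p = 0.0161) and not by the brightest probe (−0.28, adjusted p = 1) or by probe 1570347 (−0.37, adjusted p = 0.0534), so its call in this window rested on the probe taken. Without the replicate block 4 probes were called in this window.

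Whether these enzymes rise while fat cells form was read from day 6 against day −2. Under control siRNA 6 probes of 5 genes were called higher by limma (4.11% of all probes). ACADVL rose by 1.29 (SE 0.10), which is 2.44-fold, ETFDH by 1.21 (SE 0.07), ACADM by 1.06 (SE 0.13), CPT2 by 0.98 (SE 0.10) and HADHB by 0.90 (SE 0.10) on the log2 scale, each in all 3 replicates, and these are the genes whose promoters are printed. ACADL changed by 0.57 (limma adjusted p = 0.901) and ACAA2 by 0.28, neither called. Under PPARγ siRNA limma called 0 member probes higher (2.49% of all probes), with 8 higher at an unadjusted p under 0.05 (18% of all probes), and the changes lay between −0.29 for ACADL and 0.35 for ACADM among the 7 genes.

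The difference between the siRNAs in this change was called lower by limma for 5 probes of 4 genes (2.09% of all probes). It was −1.03 for ACADVL (SE 0.14, adjusted p = 0.000113), −0.91 for CPT2 (SE 0.14, adjusted p = 0.00345), −0.88 for ETFDH (SE 0.11, adjusted p = 1.35e-05) and −0.85 for HADHB (SE 0.14, adjusted p = 0.00945). It was −0.86 for ACADL and −0.71 for ACADM without a call, and 0.03 for ACAA2 (SE 0.12), which changed by similar amounts under both siRNAs. In each of the 3 replicates the mean over the 7 genes was −0.72 to −0.76. Without replicate 1 or without replicate 2 none of the 14 probes kept this call, and without replicate 3 there were 3 calls.

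**Figure D3:**
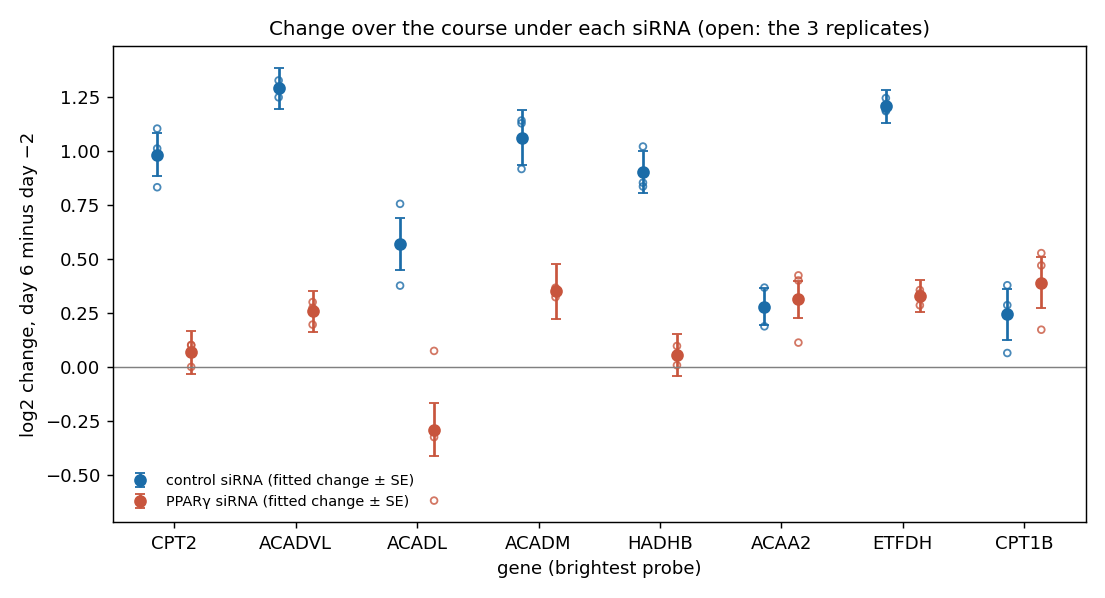
Log2 change from day −2 to day 6 (y axis) of the brightest probe of 8 genes (x axis) under control siRNA (blue) and PPARγ siRNA (red), with filled points for the fitted change, bars of 1 SE and open points for the 3 replicates. ACADVL, ETFDH, ACADM, CPT2 and HADHB lie between 0.90 and 1.29 under control siRNA and at or below 0.35 under PPARγ siRNA, while ACAA2 and CPT1B overlap.

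The rise did not follow a single course, and the changes between neighbouring early days were fitted after the levels had been seen. From day −2 to day 0, before any rosiglitazone, 5 probes of 4 genes were called higher by limma under control siRNA (4.01% of all probes). ACADM rose by 2.11 (SE 0.13, adjusted p = 1.55e-14), which is 4.33-fold, CPT2 by 0.93, ACADVL by 0.63 and ETFDH by 0.46. ACADM rose in the same interval under PPARγ siRNA, by 1.53 (SE 0.13, adjusted p = 3.87e-10), as the only member probe called there (3.36% of all probes). The siRNAs' changes in this interval differed by −0.58 for ACADM (SE 0.18, limma adjusted p = 1), which limma did not call. ACADL had a change of −0.54 under control siRNA and −0.33 under PPARγ siRNA by its brighter probe, neither called. Leaving out any one replicate left 3 of the 5 calls under control siRNA.

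From day 0 to day 1 the called genes were not the same under both siRNAs, and none was called in opposite directions. Under control siRNA 2 probes were called higher by limma (4.89% of all probes), ACADL by 0.69 and ACAA2 probe 2360324 by 0.57, and ACADM fell by 0.75 (adjusted p = 0.0194). Under PPARγ siRNA 3 probes of 2 genes were called lower (3.67% of all probes): ACADM fell by 1.36 (SE 0.13, adjusted p = 1.17e-08), which left it near its mean of 10.83 on day −2, and CPT2 fell by 0.68 and by 0.85 with its 2 probes. The change was lower under PPARγ siRNA than under control siRNA for all 14 probes, from −0.13 to −0.66, where the median over all probes was also lower, at −0.13. Of the 14 probes, 2 were above background on no array. For the 7 genes above background on all arrays, the difference ran from −0.30 to −0.62 by the brightest probes. Limma called this difference for none of the 14, with 11 at an unadjusted p under 0.05 (8.07% of all probes). ACADM under control siRNA then climbed again, to 13.11 on day 2, so that it had 2 peaks. None of the calls under control siRNA in this interval was kept when any one replicate was left out, and under PPARγ siRNA 1 was called without replicate 2.

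Across the 16 means of siRNA and day, the 21 pairs of the 7 genes had Pearson r between 0.395 and 0.984 with a median of 0.824, as a description of means that share arrays. HADHB with ETFDH and ACADVL with ETFDH were most alike (0.984 and 0.983), and ACADM with ACADL least (0.395). Outside the lists used here, the 5 probes most like the mean standardised course of the 8 genes above background were 1300007F04RIK (r = 0.985, above background on 1 of 24 arrays with PPARγ siRNA and 17 of 24 with control siRNA), 2400009B08RIK (r = 0.984), 5730469M10RIK (r = 0.983), PANK3 (r = 0.978), a pantothenate kinase at the start of coenzyme A synthesis, and HIBADH (r = 0.977), an enzyme of valine breakdown, each over 16 means.

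Around these enzymes, most other genes of mitochondrial beta-oxidation were lower too. Of a list of 16, 15 were read and 14 were above background on at least 3 arrays. Limma called 10 lower and 1 higher over days −2 to 6 (6.74% and 6.37% of all probes). The median log2 difference was −0.41 beside −0.03 over all probes. ACADS, the short-chain dehydrogenase, was lower by 1.01 (log2 difference −1.01, SE 0.04), ECHS1, the enoyl-CoA hydratase, had −0.67 (SE 0.04) and CRAT, the carnitine acetyltransferase of the matrix, −0.65 (SE 0.04). ETFA and ETFB, which carry the electrons to ETFDH, had −0.47 and −0.55. The gene called higher was CPT1C, a brain form of CPT1, at 0.31 (SE 0.05, limma adjusted p = 0.00311), a call that was lost when any one replicate was left out. SLC25A20, which carries acylcarnitines across the inner membrane between CPT1 and CPT2, was above background on no array.

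All 18 genes of peroxisomal beta-oxidation were read, 12 of them above background on at least 3 arrays. Over days −2 to 6 limma called 8 lower and 0 higher (6.74% and 6.37% of all probes). PEX11A, a factor of peroxisome division, had the largest log2 difference at −1.78 (SE 0.04), followed by ABCD2, a fatty acyl-CoA transporter of the peroxisome membrane, at −1.26 (SE 0.06) and SCP2, which carries a thiolase, at −1.07 (SE 0.03). Of 12 genes of ketone bodies and of the control of oxidation, 8 were above background on at least 3 arrays. Limma called 6 lower and 1 higher (again 6.74% and 6.37% of all probes). PPARGC1B, a coactivator of oxidative genes, was above background on 18 of 24 arrays with control siRNA and on none with PPARγ siRNA, which makes it at least 1.71-fold lower. PPARGC1A, its relative, had −1.44 (SE 0.06) and ACAT1, the mitochondrial acetoacetyl-CoA thiolase, −0.84 (SE 0.05). PDK4, a pyruvate dehydrogenase kinase, was the gene that was higher, at 0.63 (SE 0.04, limma adjusted p = 3.50e-12). These averages hide a course: PDK4 was at 1.33 on day −2 and at 0.20 without a call on days 4 to 6, and PPARGC1A at −1.49 on day −2 and at −0.16 without a call on day 6.

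**Figure D4:**
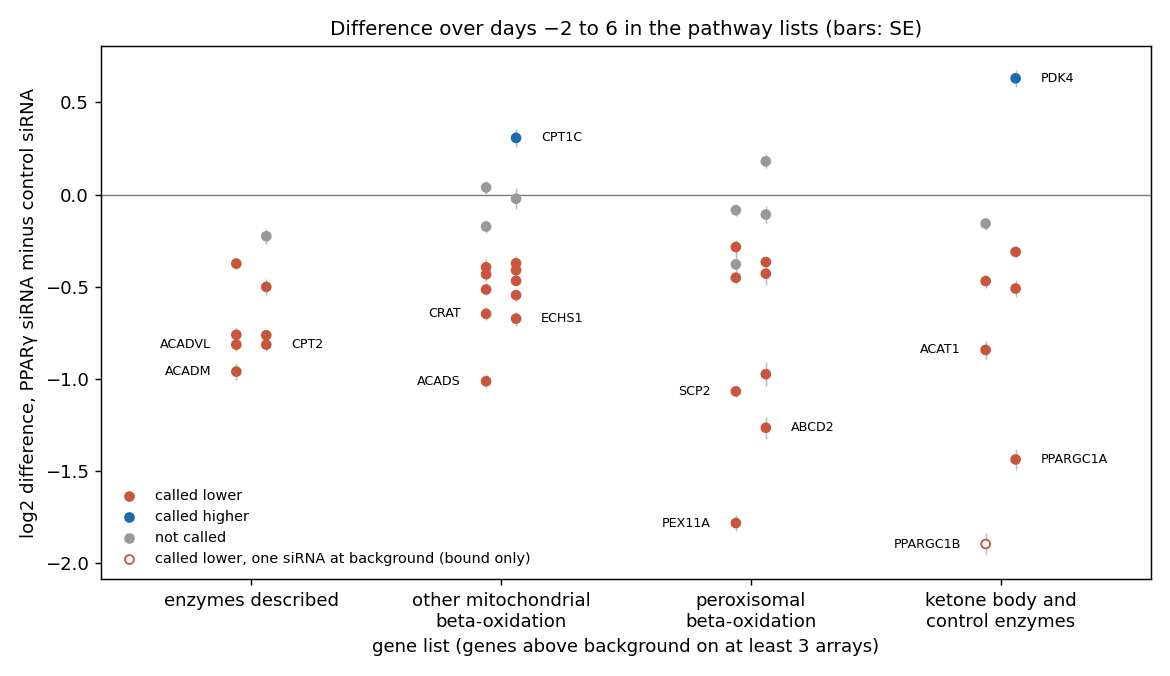
Log2 difference over days −2 to 6 (y axis) with bars of 1 SE for the genes above background on at least 3 arrays in 4 lists (x axis), red where limma called the gene lower, blue where higher and grey where it made no call. PPARGC1B is drawn open at its measured difference, since it was above background on no array with PPARγ siRNA and has only a bound. The lowest member is ACADM at −0.96, PEX11A lies at −1.78, and PDK4 and CPT1C lie above 0.

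Markers of fat cells were lower too. No test compared their course with that of the members, and their part in the result was not tested. Over the 16 means of siRNA and day, the 7 genes had Pearson r with ADIPOQ from 0.46 (ACADM) to 0.82 (ACADVL), as a description. All 8 adipocyte markers, 7 of them above background on at least 3 arrays, were called lower over days −2 to 6 (6.74% of all probes). CIDEC had −4.15 and ADIPOQ −3.74. PLIN, above background on no array with PPARγ siRNA, was at least 3.74-fold lower. Summed over the 8 markers, the log2 signal on day 6 was 16.99 to 17.10 under control siRNA and 14.89 to 15.01 under PPARγ siRNA. On day −2 it was already apart, at 13.36 to 13.57 against 12.15 to 12.33. With either siRNA, though, 1 of the 8 markers was above background on all 3 arrays of that day. Limma called 1 of the 8 lower on day −2 (0.674% of all probes), and their median log2 difference was −0.04. On day 0 limma called 4 of the 8 markers lower and 0 member probes (1.37% of all probes). At an unadjusted limma p under 0.05, 9 of the 14 member probes were lower that day (8.87% of all probes). From day −2 to day 6 under PPARγ siRNA limma called 5 of the 8 markers higher and 0 member probes (2.49% of all probes). At an unadjusted limma p under 0.05, 8 member probes were higher there (18% of all probes). Of 8 fibroblast markers 4 were called higher over days −2 to 6 (6.37% of all probes), with DLK1 at 0.43, THY1 at 0.37 and COL3A1 at 0.36. Summed over the 8, the log2 signal on day 6 was 16.71 to 16.82 under control siRNA and 16.91 to 17.01 under PPARγ siRNA. By single days, limma called 5 of the 8 higher on day 2 (4.74% of all probes) and 0 on day 6 (0.796%). None of the 6 brown adipocyte markers, UCP1 among them, and none of the 6 hepatocyte markers was above background on any array. Of 7 muscle markers read, ACTA1 and TNNT3 were above background on 3 or more arrays, and of 6 macrophage markers LYZS was. TNNT3 was called higher over days −2 to 6 at 0.45 (limma adjusted p = 6.81e-06) and LYZS at 0.32 (adjusted p = 0.0134), and their part in the result was not tested. The summed muscle markers lay between 7.78 and 9.05 and the summed macrophage markers between 7.48 and 9.29 on all arrays.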

How the data were processed

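The authors deposited the mean bead intensity of each probe from BeadStudio 3.3.7 without normalization, and with it the number of beads and a detection score, a fraction equal to 1 minus the detection p-value. The study's own normalization and batch removal are not in these values. The MouseRef-8 file names no chip and no genome build.

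Background was removed from these intensities with normexp on the detection p-values (offset 16) in limma 3.58.1 under R 4.3.3. Arrays were scaled on probes between the 50th and 90th percentile with a rank shift under 0.05 (scale factors 0.730 to 1.58). The linear model of the 48 arrays, on the log2 scale, held 1 mean for each siRNA at each day plus a replicate block. The study removed a batch effect by ANOVA, and which arrays formed its batches is not given in the sources used here. Days 4 to 6 were fitted on 18 arrays. No arrays were identical. The study names the replicates as biological, while the sample titles give only a replicate number. Deviations of same-numbered arrays correlated at 0.544 to 0.914 in 24 of 24 pairs over 10567 probes above background, and 16 of the 24 correlated best with their own number. Over all 24613 probes the range was 0.0239 to 0.901, with 23 of 24 pairs over 0.1 and 14 best with their own number.

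A gene is given by its brightest probe. All members were named, with up to 3 called genes in each direction per list and the 5 probes most like the members. "At least" folds set the bright group against the lowest signal above background, or the dim probe's own where higher. Members and lists were chosen with earlier results of these data known. One list gene is not reported here and was left out of its list. On simulated data of 24613 probes with 200 changed, the fits recovered 137 to 200, with at most 1 unchanged probe called. The planted changes were all larger than any member's difference over all days, so the recovery does not cover smaller ones. Alternatives were quantile normalization, no background correction, offset 50, a filter on dim probes, Benjamini-Hochberg adjustment, no block, each replicate left out, and the mean of a gene's probes. Figures were drawn with matplotlib 3.10.9.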

Additional observations from a re-analysis of the deposited data

Results flagged for a closer look

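The change from day −2 to day 6 differed between the siRNAs by the test of the interaction in limma for both CPT2 probes, at −0.91 and −0.93, for ACADVL at −1.03, for HADHB at −0.85 and for ETFDH at −0.88 on the log2 scale. In each the PPARγ siRNA arrays gained less, in 3 of 3 replicates, and none of the 5 calls was kept without replicate 1 or without replicate 2.

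The gap between the siRNAs was wider on days 4 to 6 than on days 0 to 2, again by a test of the difference, for ACADL at −0.63, HADHB at −0.47, ACADVL at −0.45 and ETFDH at −0.36 on the log2 scale, wider late in 3 of 3 replicates. None of these 4 calls was kept without replicate 1 or without replicate 2. Groups held 3 arrays each and were not tested for an array standing apart.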

How the results depend on the processing

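Of 181 counts of member probes under other settings, 137 stayed within 1.5 times the reported count. Of 260 log2 differences of called member genes, 222 stayed called, 38 lost the call and 0 turned. With Benjamini-Hochberg adjustment in limma the counts were 1 on day −2, 5 on day 0, 10 on day 4, 11 higher from day −2 to 6 under control siRNA and 6 under PPARγ siRNA, 7 from day −2 to 0 under PPARγ siRNA, and, from day 0 to 1, 4 under control siRNA, 6 under PPARγ siRNA and 5 for their difference.

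One pair of same-numbered arrays did not deviate together over all probes (r = 0.0239). With the pairing dropped, without the replicate block, the counts fell to 4 for days 4 to 6, 2 on each of days 1 to 4, 3 on days 5 and 6, 2 and 1 for the change from day −2 to 6 under control siRNA and its difference, 1 for late minus early, 1 from day −2 to 0 under control siRNA, and 0 and 1 from day 0 to 1 under control and PPARγ siRNA. Over all days it was 7, with adjusted p = 0.648 for HADHB and 0.0657 for ACAA2 (limma).

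With one replicate left out, the counts ran from 10 to 10 over all days, 6 to 7 for days 4 to 6, 0 to 1 on day 0, 3 to 8 on day 1, 4 to 6 on day 2, 6 to 7 on day 3, 5 to 6 on day 4, 5 to 8 on day 5, 5 to 7 on day 6, 5 to 6 for the rise under control siRNA, 0 to 3 for its difference and 0 to 1 for late minus early. They were 3 to 3 from day −2 to 0 under control siRNA, 0 to 0 and 1 to 2 from day 0 to 1 under control and PPARγ siRNA.

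No background correction or offset 50 gave 1 call on day 0, and no correction 0 from day 0 to 1 under control siRNA. Quantile normalization gave 2 from day −2 to 0 under PPARγ siRNA and 1 from day 0 to 1 under control siRNA, and the filter on dim probes gave 3 for the former. Uncalled values turned in sign: the difference in the rise ran from −0.013 (without replicate 1) to 0.28 (without replicate 2) for CPT1B and was −0.024 with the mean of its probes, it ran from −0.061 (without replicate 2) to 0.12 (without replicate 3) for ACAA2, and late minus early ran from −0.062 (without replicate 1) to 0.036 (without replicate 2) for CPT1B. The causes were not tested. The changes between neighbouring early days were chosen after seeing the data. The BeadChip as a block was not run, since the file names no chip. CPT1A and the second CPT1B probe gave no signal above background, which limits what can be said of the entry step.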
